A study of Arabidopsis thaliana with 16 samples.

Results

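GH9B11 (AT2G44560) and GH9B16 (AT4G38990) are 2 Arabidopsis thaliana genes of glycosyl hydrolase family 9, the plant cellulase family. Each was followed by the probe for which the platform's annotation lists that gene alone. These are 2 probes of the 3439 on the arrays and 2 of the 691 genes that have such a probe. Expression was measured in total RNA of 16 samples, 8 of wild type (WT) in the ecotype Columbia 0 and 8 of the gun1-1 mutant (gun1) in the same ecotype, each numbered 1 to 8. The labels describe the mutant as impaired in plastid signaling. They give no age, tissue, growth condition or treatment for either genotype. Whether different numbers stand for different plants is not stated, and the spread behind each p-value may be technical. The pair was selected on measured values of these same arrays, with the results of gun1 against WT and the values listed at 0 known, so the differences between the genotypes are given as a description.

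Family 9 enzymes cut the beta-linked glucan chains of the plant cell wall. Plants have a membrane-anchored class (GH9A, with KORRIGAN1, which takes part in cellulose synthesis), a secreted class (GH9B) and a secreted class with a carbohydrate-binding module (GH9C). Wall-loosening enzymes of this kind are known from growing, separating and softening tissues. GUN1 is a pentatricopeptide repeat protein of plastids that takes part in their signaling to the nucleus.

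Of 21 family 9 genes with a GH9 symbol in RefSeq's genes of assembly TAIR10.1, 12 were listed by at least 1 probe and 4 had a probe of their own, namely GH9B8, GH9B11, GH9B12 and GH9B16. GH9B11 lies on chromosome 2 in a row of 4 neighbouring family members, GH9B9, GH9B10, GH9B11 and GH9B12. GH9B16 lies on chromosome 4 beside GH9B17, which is followed by GH9B18. Another 7 probes listed a family 9 gene together with other genes. One of them listed GH9B11 with its 3 neighbours, and 1 listed GH9B16 with GH9B17 and GH9B18. How far a probe also binds transcripts of a related gene was not tested.

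Deposited intensities were linear and ran from 0 to 100 in every sample, so a value of 1 is 1% of the highest value of a sample. Medians of the deposited values lay between 0.130 and 0.157 in WT and between 0.216 and 0.259 in gun1. Values deposited as 0 made up 7.27% to 13.1% of the probes of a WT sample and 5.61% to 7.97% of those of a gun1 sample. Levels were therefore also compared after quantile normalization, which gives all samples 1 common distribution, with a floor of 0.0313 to which zeros and lower values were set. None of the 19 marker genes looked up for leaf, root, seed, flower and senescence had a probe of its own, so the tissue could not be checked.

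GH9B11 was dim in WT, and its deposited intensity was higher in every gun1 sample than in any WT sample. Its deposited intensity in the WT samples 1 to 8 was 0.0576, 0.0669, 0.0328, 0.0845, 0, 0.0135, 0.0384 and 0.0586. In the gun1 samples 1 to 8 it was 0.199, 0.359, 0.147, 0.245, 0.197, 0.169, 0.223 and 0.186. The groups did not overlap: the lowest gun1 sample, number 3, lay above the highest WT sample, number 4. The mean was 0.0441 ± 0.0282 in WT and 0.216 ± 0.0654 in gun1 (n = 8 each, ± SD). Among all tested probes, 12% had every gun1 sample above every WT sample on this deposited scale, on which the gun1 medians were also higher. Fewer cells that carry a transcript and less of it per cell cannot be told apart in such bulk samples.

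After quantile normalization the GH9B11 level was 0.0718 ± 0.0310 in WT and 0.171 ± 0.0497 in gun1 (n = 8 each, ± SD). The normalized groups overlapped narrowly, since WT sample 4 reached 0.134 and gun1 sample 3 stood at 0.124; 4.8% of the tested probes had every gun1 sample above every WT sample on this scale. The log2 difference, gun1 minus WT, was 1.32 (SE 0.26, 95% interval 0.78 to 1.86), or 2.50-fold. It was above 0 in 8 of 8 numbers, from 0.67 in number 4 to 2.40 in number 5, where the WT value had been deposited as 0. A higher gun1 level in all 8 numbers was seen in 12.7% of the tested probes.

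GH9B16 was at or near 0 in WT. Its deposited intensity in the WT samples 1 to 8 was 0, 0.0222, 0, 0.0158, 0.0272, 0, 0.00829 and 0, so 4 of 8 WT samples were listed at 0. In the gun1 samples 1 to 8 it was 0.216, 0.266, 0.138, 0, 0.251, 0.0855, 0.218 and 0.186. The 7 gun1 samples with a value above 0 all exceeded the highest WT sample, and gun1 sample 4 was the 1 exception, listed at 0. The mean was 0.00918 ± 0.0112 in WT and 0.170 ± 0.0907 in gun1 (n = 8 each, ± SD).

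**Figure D1:**
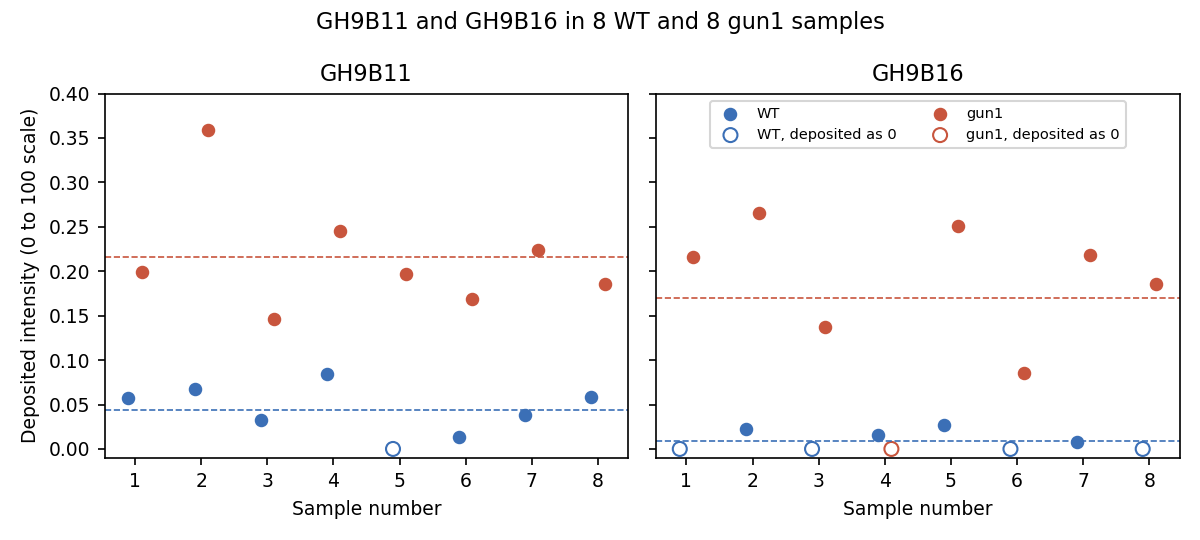
Deposited intensity (vertical axis, on the scale from 0 to 100) of GH9B11 and GH9B16 by sample number (horizontal axis) in 8 WT and 8 gun1 samples. Filled points are values above 0, open points are values deposited as 0, and dashed lines are the means of the groups; all gun1 points of GH9B11 lie above all WT points, and for GH9B16 the gun1 sample 4 lies at 0.

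After normalization GH9B16 stood at the floor in 6 of 8 WT samples and in 1 of 8 gun1 samples. The level was 0.0372 ± 0.0112 in WT and 0.136 ± 0.0626 in gun1 (n = 8 each, ± SD). The log2 difference, gun1 minus WT, was 1.72 (SE 0.33, 95% interval 1.02 to 2.42), or 3.29-fold. Because most WT samples lay at the floor, this size depended on it: the log2 difference was 0.62 with the floor at the 20th percentile of the positive values and 2.57 with the floor at the 1st percentile. It was above 0 in 7 of 8 numbers, at 1.20 to 2.66, and -0.70 in number 4. Of the tested probes, 21.3% were higher in gun1 in 7 or more numbers.

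Of the 5 zeros of GH9B16, 4 were in WT (samples 1, 3, 6 and 8) and 1 in gun1 (sample 4). GH9B11 had 1 zero in WT (sample 5) and 0 in gun1. An excess of at least 3 zeros in WT over gun1, as GH9B16 had, occurred in 5.09% of the tested probes. This share covers probes of all levels, and the share among probes as dim as GH9B16 was not determined. More zeros in WT than in gun1, as both genes had, occurred in 21.3% of the probes and fewer in 8.13%. In gun1 sample 4 the number of zeros over all probes, 246, lay within the range of the gun1 samples, 193 to 274. Without this sample the log2 difference of GH9B16 was 1.99 (SE 0.24).

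The position of a probe within its own sample does not depend on any scaling between samples. Among the 3439 probes of a sample, the percentile of GH9B11 lay between 5.86 and 37.4 in WT, with a median of 22.4, and between 35.2 and 63.0 in gun1, with a median of 42.6. That of GH9B16 lay between 4.07 and 18.9 in WT, with a median of 8.23. In gun1 its median was 40.5, with 3.59 in sample 4 and 22.0 to 55.4 in the others. Both transcripts thus lay in the dim part of the WT arrays and near the middle of most gun1 arrays.

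In the limma fit across all probes, both genes passed the threshold of an adjusted p of 0.05, with adjusted p = 0.00104 for GH9B11 and 0.00106 for GH9B16. Of 3419 tested probes 16.6% passed as higher in gun1, and 31.8% passed in either direction. Both genes had been picked with this contrast known, so nothing is read from their 2 calls. The median log2 difference of the 3419 probes was -0.05. Among the 342 probes in the same of 10 equal classes by mean level, 18.7% passed as higher in gun1 in the class of GH9B11 and 9.94% in that of GH9B16.

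**Figure D2:**
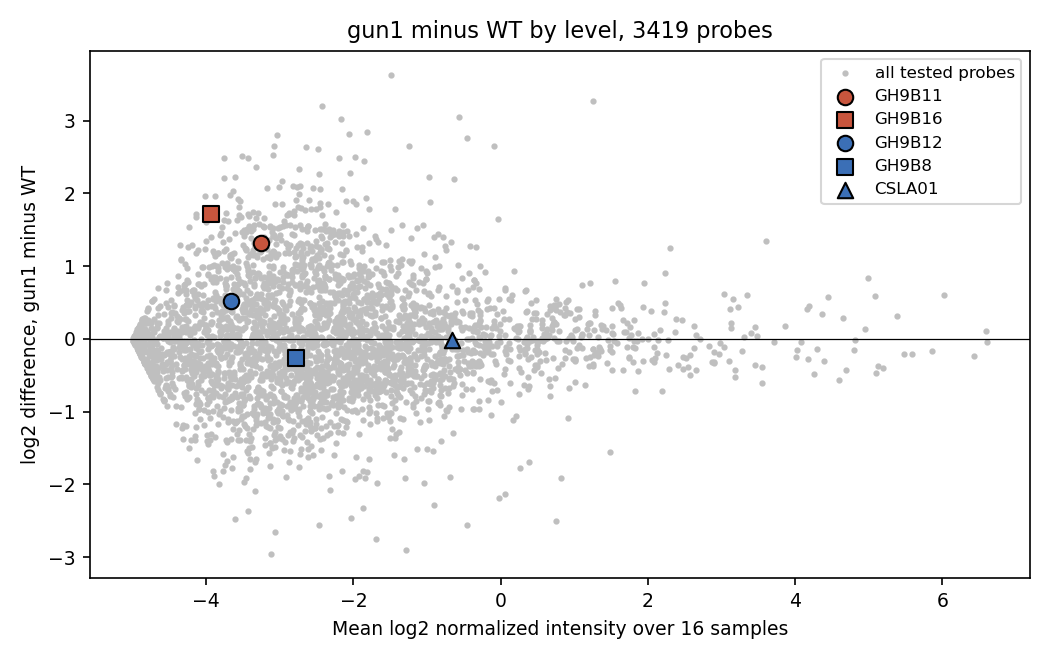
The log2 difference, gun1 minus WT, (vertical axis) against the mean log2 normalized intensity over 16 samples (horizontal axis) for 3419 tested probes, with GH9B11 and GH9B16 in red and the other cell wall genes that have a probe of their own in blue. GH9B11 (1.32) and GH9B16 (1.72) lie in the dim part of the range, and the cloud narrows at its left end, where most samples lie at the floor.

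The probes that list a member together with its relatives were examined as well, as a description of the same contrast. On the probe listing GH9B16, GH9B17 and GH9B18, the deposited WT values ran from 0 to 0.0354 with 4 zeros, and the gun1 values from 0.0791 to 0.324 with 0 zeros. Every gun1 sample lay above every WT sample on the deposited scale, as in 12% of the tested probes. After normalization the groups overlapped, since WT sample 5 stood at 0.0699 and gun1 sample 1 at 0.0474. In gun1 sample 4, where GH9B16 alone was listed at 0, the deposited value of this probe was 0.252. The log2 difference was 1.98 (SE 0.32, limma adjusted p = 0.000242), above 0 in 8 of 8 numbers.

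On the probe listing GH9B11 with GH9B9, GH9B10 and GH9B12, 6 of 8 WT samples and 1 of 8 gun1 samples (sample 5) were deposited as 0. The highest WT value was 0.0239, and the other gun1 samples lay between 0.0658 and 0.173. Its log2 difference was 1.10 (SE 0.26, limma adjusted p = 0.00393), and 7 of 8 WT values stood at the floor. Neither probe tells which of its listed genes gave the signal.

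The variation of these probes between samples was set beside that of the members. Over the deviations from the genotype mean in 16 samples, r was 0.03 between GH9B16 and the probe listing it with GH9B17 and GH9B18. By genotype this r differed, at 0.59 in the WT samples and -0.11 in the gun1 samples. Between GH9B11 and the probe listing it with its 3 neighbours, r was -0.20 over 16 samples, -0.39 in WT and -0.14 in gun1. These values are descriptions, since the points share arrays and many lie at the floor.

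The other 5 probes that list family 9 genes, none with a member, did not pass the threshold. Of all tested probes 31.8% passed, so nothing about these 5 probes is read from their count. The probe listing GH9B9 and GH9B10, which lie in a row with GH9B11, had a log2 difference of 0.47 (SE 0.42, limma adjusted p = 0.428). The probe listing GH9B17, GH9B18 and AT3G42155 was deposited as 0 in 7 of 8 WT and 2 of 8 gun1 samples and had a log2 difference of 0.55 (SE 0.35). Its brightest value, 0.269, was in gun1 sample 4, the sample in which GH9B16 was at 0. Of 2 probes listing GH9B14 and GH9B15, 1 had a log2 difference of 0.49 (SE 0.45) and 1 was deposited as 0 in all 8 WT and 4 gun1 samples. The probe listing GH9C2 and GH9C3 had a log2 difference of -0.69 (SE 0.41).

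**Figure D3:**
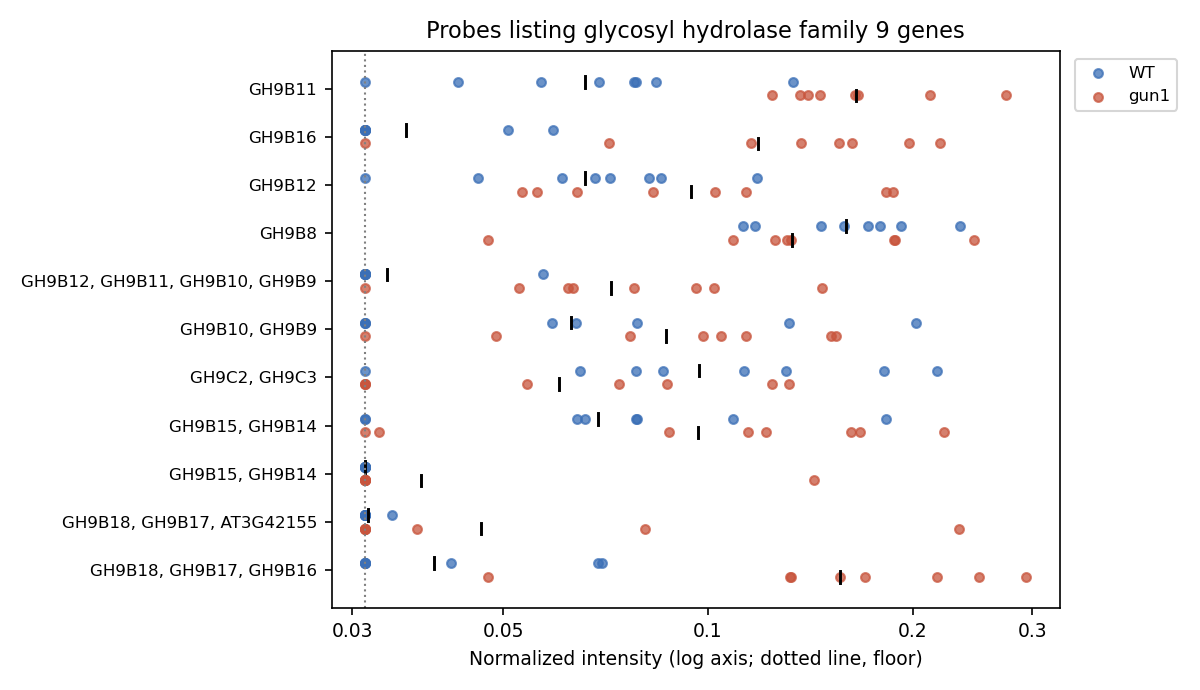
Normalized intensity (horizontal axis, log scale) in 8 WT (blue) and 8 gun1 (red) samples for the 11 probes that list a family 9 gene, the first 4 with 1 gene each. Points are samples, black bars are geometric means, and the dotted line is the floor of 0.0313. The bars lie further right in gun1 for all probes except GH9B8 and the probe listing GH9C2 and GH9C3. The shift is largest for GH9B11, GH9B16 and the 2 probes listing one of them with relatives.

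Besides the members, 3 genes of cell wall names had a probe of their own: the family members GH9B12 and GH9B8, and CSLA01, of a cellulose synthase-like family that makes mannans. The limma fit called 0 of these 3. At an unadjusted p under 0.05 the count was also 0, and the exact rank sum test called 0. Of all tested probes 31.8% passed and of the 689 tested probes with 1 gene 36.1%, so nothing about these 3 genes is read from their count. The median log2 difference of the 3 was that of CSLA01, -0.01, and that of all tested probes was -0.05.

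GH9B12, a direct neighbour of GH9B11, had a deposited intensity of 0.0436 ± 0.0185 in WT and 0.139 ± 0.0643 in gun1 (n = 8 each, ± SD). Its deposited value was higher in gun1 than in WT in 8 of 8 numbers, on a scale where the gun1 sample medians were also higher. No zero occurred in either group. After normalization the log2 difference was 0.52 (SE 0.31, 95% interval -0.13 to 1.17, limma adjusted p = 0.216), above 0 in 6 of 8 numbers. The call depended on the scaling: limma's adjusted p was 0.0161 with a common median (log2 0.93) and 0.000295 unscaled (log2 1.66). Unscaled, the median of all probes was at 0.41.

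GH9B8 went from 0.121 ± 0.0364 in WT to 0.186 ± 0.0758 in gun1 on the deposited scale (n = 8 each, ± SD). Normalized, its log2 difference was -0.27 (SE 0.27, 95% interval -0.84 to 0.31, limma adjusted p = 0.491), and unscaled it was 0.57, so its direction turned with the scaling. CSLA01 stood at a median percentile of 84.4 within the WT samples and had a log2 difference of -0.01 (SE 0.20, 95% interval -0.44 to 0.42). Its difference was -0.60 with a common median (limma adjusted p = 0.0210) and 0.13 unscaled.

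The scaling changed the size of the members' differences but not their direction. For GH9B11 the log2 difference was 1.09 with cyclic loess, 1.60 with a common median and 2.23 unscaled, and for GH9B16 it was 1.69, 2.03 and 2.48. The share of all tested probes that passed as higher in gun1 was 17.2%, 15.5% and 35.6% in these fits. The median over all probes was -0.00311, -0.18 and 0.41 under the same scalings. In the numbers 1 to 4 alone, the calls of both genes were lost: the log2 difference was 1.02 for GH9B11 (limma adjusted p = 0.0594) and 1.54 for GH9B16 (0.0842). In the numbers 5 to 8 alone it was 1.63 and 1.90, with both calls kept (limma adjusted p = 0.0142 and 0.0221). Whether the 2 sets of numbers differ was not tested.

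**Figure D4:**
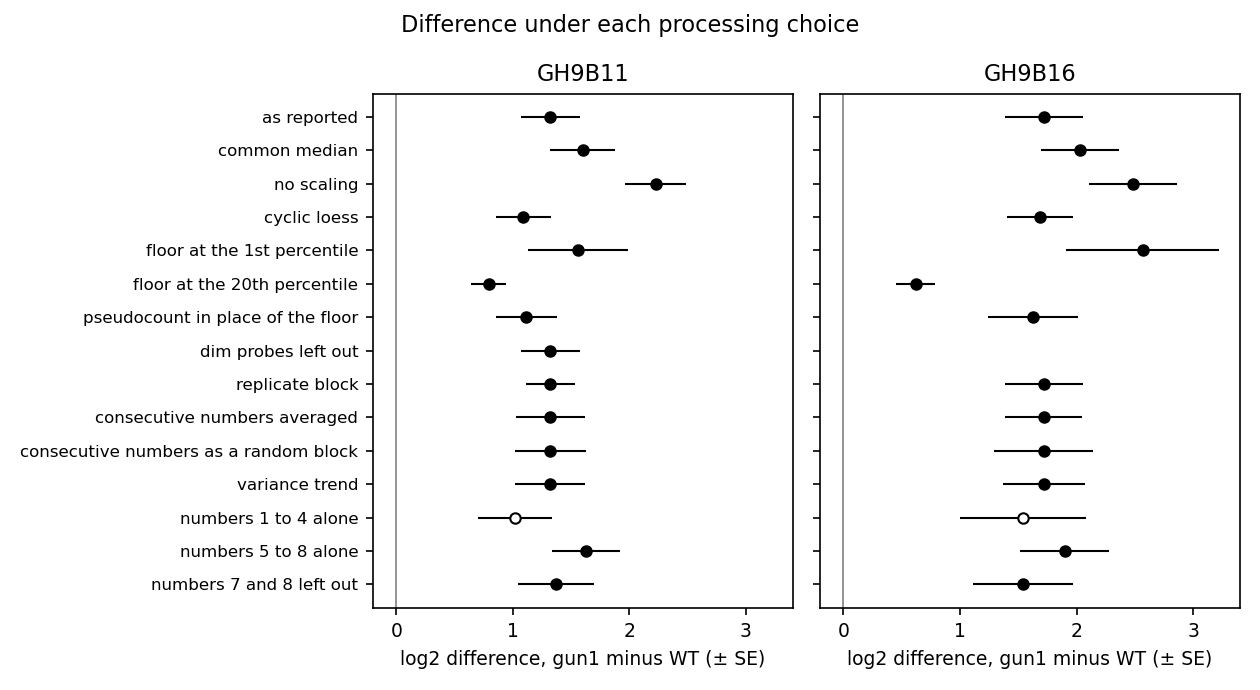
The log2 difference, gun1 minus WT, ± SE (horizontal axis) of GH9B11 and GH9B16 under each processing choice (vertical axis). Filled points had a limma adjusted p under 0.05 and open points did not; all points lie above 0, from 0.79 to 2.23 for GH9B11 and from 0.62 to 2.57 for GH9B16, and GH9B16 has no point where dim probes were left out.

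Samples of the same number were compared across genotypes, and the members with each other within a genotype. Neither correlation uses the difference between the group means, although the values listed at 0, known when the genes were selected, enter both. Across the 8 numbers, the log2 level of GH9B11 in WT and in gun1 gave Pearson's r = 0.34 (exact permutation p = 0.401) and Spearman's rho = 0.29 (exact permutation p = 0.501), and r = 0.28 without the 2 numbers farthest from the WT median. For GH9B16, r was -0.22 (exact permutation p = 0.643) and rho 0.11 (exact permutation p = 0.786). Since 6 WT values shared the floor, leaving out the 2 farthest numbers left no variation in WT.

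The members were also set against each other. GH9B11 and GH9B16 gave r = -0.17 in WT (exact permutation p = 0.696, rho = -0.11, permutation p = 0.786) and r = -0.07 in gun1 (exact permutation p = 0.876, rho = 0.26, permutation p = 0.536). Without the 2 farthest samples r was 0.48 in gun1, and in WT no variation of GH9B16 was left. Over these 4 relations the adjusted p was 0.876 for every r and 0.786 for every rho. In the 2 relations that use GH9B16 in WT, the values tied at the floor allow no exact permutation p for r below 0.0179, or 0.0714 when multiplied by the 4 relations. Passing the Benjamini-Hochberg adjustment would thus have needed a small p in another relation as well, so nothing about a relation is read from these 2. In the others, none was detectable with 8 samples each. Consecutive numbers of a genotype (1 and 2, 3 and 4 and so on) deviated together across all probes, with a mean r of 0.198 against -0.198 for other pairs. Taking deviations from the group mean by itself pulls r between samples of a group below 0, so the negative value is partly built in. The 8 samples may hold fewer independent ones, and the p-values of these relations may be too small.

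The SD of the log2 level of GH9B11 was 0.64 in WT, where sample 5 lay at the floor, and 0.38 in gun1, where no sample did. For GH9B16 it was 0.38 in WT, where 6 samples shared the floor, and 0.92 in gun1, where sample 4 lay at the floor.

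The genes most like each member in this variation were sought among probes with 1 gene and at most 4 samples at the floor, by Pearson's r of the deviations from the genotype mean over 16 samples. For GH9B11, of 571 compared, they were AT4G12270 (r = 0.76), AT2G39000 (r = 0.74) and SECE1, a subunit of the thylakoid Sec translocase (r = 0.65). For GH9B16, of 572 compared, they were AT3G58610, a ketol-acid reductoisomerase of branched-chain amino acid synthesis (r = 0.74), AT2G30320 (r = 0.71) and XERICO, a RING finger gene tied to abscisic acid (r = 0.69). As the highest of that many, such values are descriptions. Their own log2 differences, gun1 minus WT, ran both ways: -1.67 for AT2G39000 (SE 0.31), -0.62 for AT3G58610 (SE 0.14) and 0.77 for SECE1 (SE 0.18) passed the threshold, while -0.10 for AT4G12270, 0.07 for AT2G30320 and -0.12 for XERICO did not. GH9B16 itself stood at the floor in 6 of 8 WT and 1 of 8 gun1 samples, above the limit set for the genes compared. Its log2 level was -5.00 in gun1 sample 4, against -3.80 to -2.19 in the other gun1 samples. The r values of GH9B16 may thus rest largely on that 1 sample, and r without it was not computed.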

How the data were processed

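The deposited table holds 1 intensity per probe and sample on a linear scale; the labels record no step by which the authors made these intensities, and dyes, scanner and normalization are not stated there. Groups and numbers come from the sample titles. The members and lists were chosen with earlier results of these data known.

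Quantile normalization was done in R 4.3.3 with limma 3.58.1. Zeros and values below the 5th percentile of the positive values were set to that floor, 0.0313, and log2 was taken. Left out were 20 probes with 1 constant value, which left 3419. The difference gun1 minus WT was tested with lmFit and eBayes, 8 against 8, two-sided, without covariate, with Benjamini-Hochberg adjustment and a threshold of 0.05. Levels are means ± SD; a fold is a ratio of geometric means. The number of arrays limits the precision, and no depth applies. The procedure was also run on simulated data in which all samples were independent. Samples of the same number correlated in the measured data, so nothing about the error rate here is read from that run.

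The annotation lists 1 gene for 692 probes, of which 690 matched the RefSeq table of TAIR10.1 by Entrez number, and several genes for 870. Cell wall genes were found by symbol and synonym. The genes named are the members, the cell wall genes and the 3 genes most alike in variation. Probes listing several genes were added later.

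The numbers pair the samples: deviations from the group mean correlated in all 8 pairs of the same number (r across probes from 0.143 to 0.421), and the best match of a sample across genotypes was its own number, 8 of 8 both ways. This comes from the values, since the labels give only numbers. No sample repeated another: 2 samples shared at most 4 equal values between 0 and 100. Figures were drawn with matplotlib 3.10.9.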

Additional observations from a re-analysis of the deposited data

Results flagged for a closer look

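In 22 groups of 8 samples, those of the members, the other cell wall genes and the genes most alike, 1 sample (4.55% of the groups) lay far from the rest of its group. It was gun1 replicate 2 for AT4G12270, at 0.235 against a median of 0.0771 in the other gun1 samples. The same sample held the highest GH9B11 value of the gun1 samples. Chance flags about 1 in 20 groups. No group of GH9B11 or GH9B16 held such a sample; the gap of gun1 sample 4 for GH9B16 was below the limit of that test.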

How the results depend on the processing

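GH9B11 kept its direction and its call under 30 of 31 alternatives and GH9B16 under 29 of 30. The exception was the numbers 1 to 4 alone (log2 1.02 and 1.54). The numbers 5 to 8 alone, a set of as many samples, kept both calls (limma adjusted p = 0.0142 and 0.0221). Why the calls were lost in 1 of these sets was not tested. All alternatives used the same 16 arrays or a part of them, and 16 of them left out 1 sample each. Both genes had been picked with this contrast known, so nothing is read from the kept calls. Over these alternatives the adjusted p ran from 7.15e-06 to 0.0594 for GH9B11 and from 1.81e-05 to 0.0842 for GH9B16, with 0.0164 and 0.00823 when consecutive numbers were averaged. Leaving out 1 sample at a time gave 1.17 to 1.47 for GH9B11 and 1.59 to 1.99 for GH9B16, with all calls kept. With the replicate block, the adjusted p was 0.00151 for GH9B11 and 0.00417 for GH9B16 at the same log2 differences (1.32 and 1.72), and 1293 probes passed in place of 1088; it changed no call of the 5 genes. GH9B16 and GH9B12 are absent from the fit without dim probes.

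The count of 1088 probes past the threshold was 592 with consecutive numbers averaged, 583 in the numbers 1 to 4 and 324 in the numbers 5 to 8, and 996 to 1065 without 1 sample. The share of these that were higher in gun1 was 52.1%, 34.2% with a common median and 85.5% unscaled. Of the 3 other cell wall genes, 2 passed with a common median (GH9B12 higher, CSLA01 lower) and 1 unscaled (GH9B12).

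Directions turned for CSLA01, whose difference was -0.01: 0.13 unscaled, 0.0539 with cyclic loess, 0.0417 in the numbers 1 to 4, 0.0635 without the numbers 7 and 8, and -0.12 to 0.11 without 1 sample. GH9B8 turned to 0.57 unscaled, 0.27 in the numbers 1 to 4 and 0.12 without the numbers 7 and 8, and ran from -0.39 to -0.05 without 1 sample. The correlation of GH9B16 across numbers turned from -0.22 to 0.36 with a common median and 0.29 unscaled, and that of the members within gun1 from -0.07 to 0.0853 unscaled and 0.26 with the floor at the 20th percentile. That floor left no variation of GH9B16 in WT. The cause of these turns was not tested. Levels near the floor limit all values of GH9B16 in WT.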
